A study of Mus musculus with 4 samples.

Results

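Solute carrier (Slc) genes encode the membrane proteins that move amino acids, sugars, metals, nucleotides, bicarbonate and other small molecules across the plasma membrane and the membranes of organelles. They are grouped into numbered subfamilies, mostly by sequence, so that members of a subfamily often carry related substrates. The acinar cell of the pancreas makes and exports large amounts of digestive enzymes, and it depends on such carriers for amino acids, for zinc, for the sugar nucleotides and ATP of the endoplasmic reticulum (ER) and Golgi, and for the exchange of chloride and bicarbonate with the duct. NFIC belongs to the NFI (nuclear factor I) transcription factors, which bind as dimers to a palindrome of 2 TGGC arms.

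NFIC binding was measured by ChIP-Seq in pancreas of mice aged 8 to 12 weeks and of mixed strain, in 3 libraries made with an anti-NFIC antibody and 1 library of input DNA. The paper describes the mice as wild type and gives an upper age below 12 weeks. Whole tissue was used, so peaks of acinar, duct and islet cells cannot be told apart, and no treatment or mutant is part of this comparison. The data are a merged list of 15824 peaks on the mm10 build, each 173 bp long, with the nearest gene, its distance and a score. The list carries no values for single libraries, so the depth and the spread between replicates are unknown and no test between libraries was possible. The intervals given below are 95% Wilson intervals, which cover counting error only. The tissue could not be checked against marker genes, since a peak list holds no expression levels.

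The peaks described here are those whose nearest gene, as the authors annotated it, has a symbol beginning with Slc and a digit. This rule selected 315 of the 15824 peaks and 180 of the 9086 genes named in the list. Of these 180 genes, 178 are protein-coding. The others are Slc13a2os, an antisense RNA with 1 peak (score 9.36, 1547 bp upstream), and Slc22a13b-ps, a pseudogene with 1 peak (score 7.37), which lies in Oxsr1. Among the 178 is Slc9a3r1, which encodes the scaffold protein NHERF1 and not a transporter. Another 2 solute carriers, Slc66a1 and Slc66a2, carry peaks in the list under the older symbols Pqlc2 and Pqlc1 and are not counted among the 178.

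The sites shown here are those of the highest-scoring Slc peaks that hold an exact NFI palindrome, TGGCNNNNNGCCA (the same on both strands). They are printed 5′ to 3′ on the plus strand of mm10, with the palindrome in capitals and 9 bases on each side. The site of Slc9a3r1 lies at chr11:115160155-115160167, that of Slc11a2 at chr15:100415894-100415906, that of Slc44a1 at chr4:53432013-53432025 and that of Slc30a2 (in its own intron) at chr4:134348315-134348327. The site of Slc12a4 lies at chr8:105959515-105959527, that of Slc38a2 at chr15:96676779-96676791 and that of Slc1a5 at chr7:16784198-16784210. That of Slc35b4, at chr6:34177556-34177568, is the exact site found in a promoter peak of the listed genes, and that of Slc16a5, at chr11:115462517-115462529, is given without flanks because it falls in an exon.
Slc9a3r1: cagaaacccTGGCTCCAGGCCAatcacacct
Slc11a2: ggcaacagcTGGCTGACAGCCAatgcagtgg
Slc44a1: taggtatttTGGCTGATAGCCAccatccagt
Slc30a2: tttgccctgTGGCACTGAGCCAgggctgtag
Slc12a4: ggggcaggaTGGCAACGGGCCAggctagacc
Slc38a2: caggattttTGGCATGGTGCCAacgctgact
Slc1a5: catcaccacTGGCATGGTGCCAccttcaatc
Slc35b4: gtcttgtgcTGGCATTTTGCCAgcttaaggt
Slc16a5: TGGCAGCCTGCCA

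These 9 sites lay from 8 bp (Slc35b4) to 30 bp (Slc9a3r1) from the centre of their peaks. Over all peaks with a palindrome of up to 1 mismatch, the median distance was 20.5 bp for Slc peaks and 24 bp for the others. The palindromes of Slc38a2 and Slc1a5, 2 amino acid carriers on different chromosomes, were identical over all 13 bases and differed in their flanks. The Slc1a5 peak was annotated to a SINE repeat and the Slc44a1 peak to an LTR repeat, whereas the remaining 7 were not annotated to a repeat. Of these genes, Slc11a2 imports iron, Slc44a1 carries choline, Slc12a4 couples potassium to chloride, and Slc16a5 belongs to the monocarboxylate carriers.

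Peaks lay near a larger share of Slc genes than of protein-coding genes at large. Of 375 annotated protein-coding Slc genes, 178 lay nearest to 1 or more peaks (47.5%, 42.5 to 52.5), against 37.1% of the 21027 protein-coding genes. With the 2 genes under older symbols the count was 180. When a peak had to fall inside the gene or up to 5000 bp upstream of it, 155 Slc genes (41.3%, 36.5 to 46.4) and 35.7% of all protein-coding genes had one. The difference narrowed at the promoter, defined as the 1000 bp before the transcription start site (TSS). There, 46 Slc genes had a peak (12.3%, 9.32 to 16.0), against 10.7% of all protein-coding genes, a share that lies inside the interval for the Slc genes.

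Slc genes are also longer, and longer genes can hold more peaks. The median length was 28.7 kb for Slc genes and 17.5 kb for the other protein-coding genes. Within the Slc genes, however, those with a peak (29.1 kb) and those without (28.5 kb) were of similar length, whereas over all protein-coding genes the medians were 27.3 and 13.3 kb. The part of gene length in the larger share of Slc genes with a peak was not tested.

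Most Slc genes had few peaks. A single peak was found at 100 of the 178 genes (56.2%, 48.8 to 63.3), 2 peaks at 45 genes, 3 at 20, and 4 or more at 13. These counts were not made for other genes, so few peaks per gene cannot be called particular to Slc genes. The whole list held 15824 peaks at 9086 genes and its Slc part 315 peaks at 180 genes. The genes with 6 peaks were Slc39a11, a metal carrier of the ZIP family, Slc6a9, the glycine transporter GlyT1, and Slc7a1, the carrier of cationic amino acids CAT-1. Those with 5 peaks were Slc24a4, a potassium-dependent sodium/calcium exchanger, Slc25a51, the mitochondrial NAD carrier, Slc39a14, and Slc45a1 and Slc45a4, of a subfamily known for sugar transport. A high count had different origins among them. All 6 peaks of Slc39a11 lay inside its own introns, over a gene of 405 kb, between 11363 and 78032 bp downstream of the TSS. By contrast, none of the 5 peaks of Slc45a1 or of Slc25a51 fell in the gene or in the 5000 bp upstream of it. They lay 53332 to 94171 bp from the TSS of Slc45a1 and 14118 to 58874 bp from that of Slc25a51, partly in the neighbouring genes Rere and Shb.

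The position of Slc peaks resembled that of the other peaks. Introns held 136 of the 315 Slc peaks (43.2%, against 40.7% of the 15509 other peaks), intergenic sequence 91 (28.9%, against 30.6%) and the promoter-TSS class of the authors' annotation 62 (19.7%, against 20.7%). The remaining 26 lay in exons (8), at transcript ends (6), in 3′ UTRs (5), in 5′ UTRs (5) and in non-coding transcripts (2). The first intron held 52 Slc peaks, a count that was not made for the other peaks. The median distance to the TSS was 9678 bp for Slc peaks and 10449 bp for the others. Distant peaks were less frequent, as 38 Slc peaks (12.1%, 8.92 to 16.1) lay over 50 kb from the TSS, against 18.1% of the others. Slc peaks were more frequent from 5 to 50 kb upstream of the TSS (22.9%, 18.6 to 27.8, against 17.6%).

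**Figure D1:**
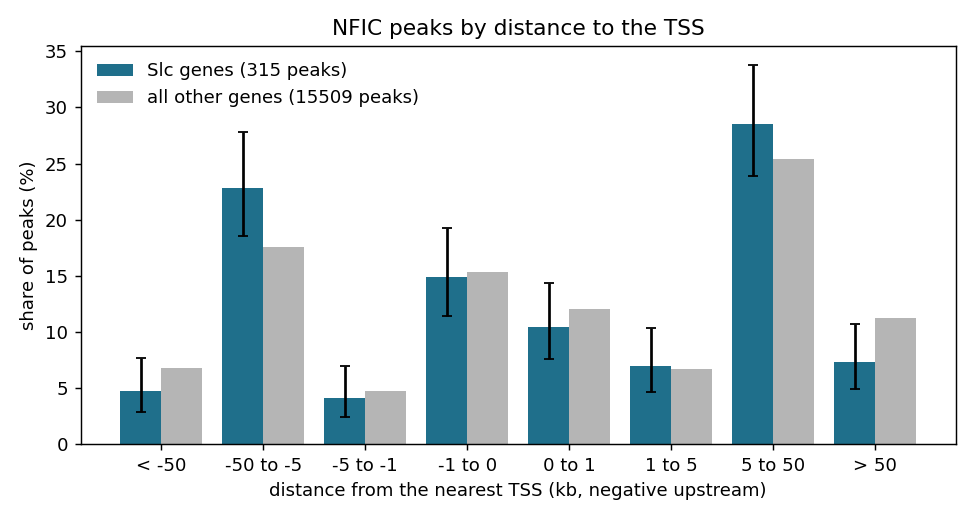
Share of NFIC peaks (%, vertical axis) by distance from the TSS of the nearest gene (kb, horizontal axis, negative upstream) for the 315 Slc peaks (blue, with 95% Wilson intervals) and the 15509 other peaks (grey). The 2 outermost bins hold smaller shares of Slc peaks (4.76% and 7.30%) than of other peaks (6.80% and 11.3%).

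The nearest gene is not always the gene in which a peak lies. In all, 31 Slc peaks (9.84%, 7.02 to 13.6) lay inside another gene, of 24 different genes. This share was not computed for the other peaks, so it cannot be called high or low. The highest-scoring Slc peak was among these 31. It was assigned to Slc9a3r1, with a score of 32.3, and lay 3151 bp upstream of its TSS at chr11:115160104-115160276, in intron 6 of Rab37. The second highest, at chr4:134355823-134355995 with a score of 23.1, lay 12443 bp downstream of the TSS of Slc30a2, at the transcript end of Extl1. Nearness alone does not tell which of the genes, if any, is controlled from such a peak.

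The score ranks the peaks on a scale of the authors that is not named in the sources used here. Its median was 6.77 at Slc genes, with a range of 3.59 to 32.3, and 6.57 at the others. Of the Slc peaks, 52.7% (47.2 to 58.1) were in the upper 2 quartiles of the list, against 51.6% of the others. The focus ratio, the fraction of a peak's tags near its centre, had a median of 0.685 and 0.684. Slc peaks as a class therefore differed little in score or shape from the rest of the list, and the differences lay between members.

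The 10 highest-scoring Slc peaks belonged to Slc9a3r1 (2 peaks), whose product is not a transporter, and to carriers of several substrate groups. Of these, Slc30a2, Slc48a1, Slc39a9 and Slc39a14 are carriers of zinc, iron and other metals, a group with 37 of the 315 Slc peaks. After the peaks of Slc9a3r1 and Slc30a2 came the promoter peak of Slc48a1, a haem transporter, with a score of 21.5 at 46 bp upstream of the TSS (chr15:97784233-97784405). A further peak of Slc9a3r1, in the first intron, scored 20.5. The nucleoside transporter Slc29a1 scored 19.7 and the zinc importer Slc39a9 scored 18.9, both in the first intron. Slc4a3, an anion exchanger, and Slc35f5, an orphan carrier, each scored 17.9 with intergenic peaks. That of Slc4a3 was 146854 bp from the TSS, the most distant of the 10, and that of Slc35f5 lay 18072 bp upstream. Slc25a10, the mitochondrial dicarboxylate carrier, scored 17.7 in its 3′ UTR, and Slc39a14, an importer of zinc, iron and manganese, scored 17.7 in the first intron.

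**Figure D2:**
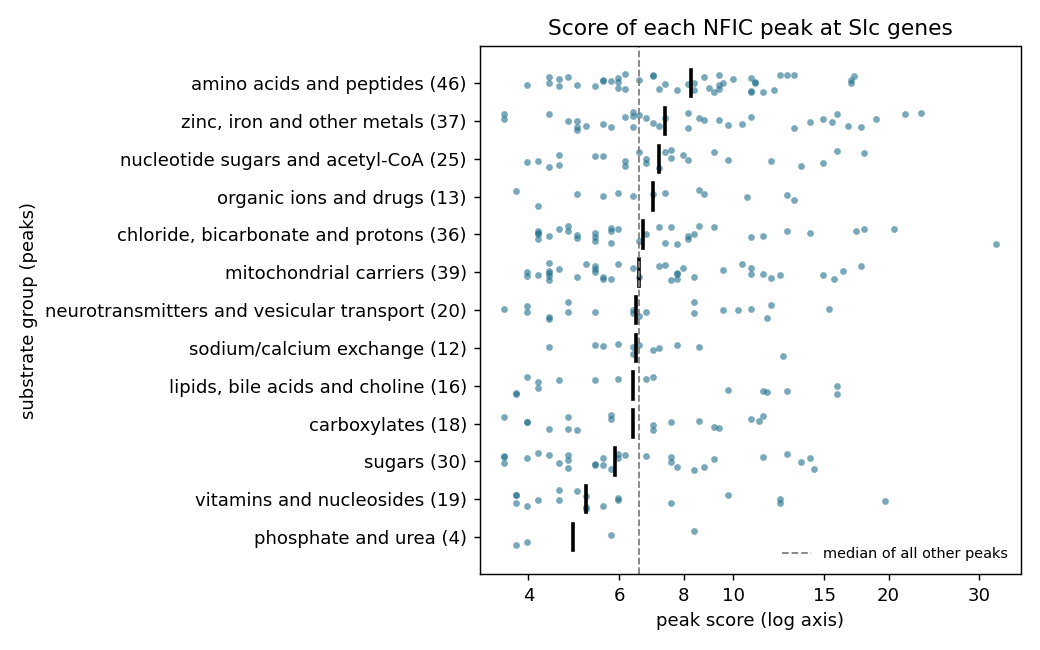
Score of each of the 315 Slc peaks (horizontal log axis, in the authors' units) by substrate group of the gene, with the number of peaks in brackets. Black bars mark group medians and the dashed line the median of all other peaks (6.57), and the scores of the groups overlap throughout, with the highest group median for amino acids and peptides (8.27).

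By substrate, carriers of zinc, iron and other metals were the group with the largest share of genes near a peak (20 of 33, 60.6%, 43.7 to 75.3), and carriers of organic ions and drugs had the smallest among groups of 7 or more genes (7 of 27, 25.9%, 13.2 to 44.7). For the metals, the interval lay above the 37.1% of all protein-coding genes. For the amino acid and peptide group (25 of 50, 50%, 36.6 to 63.4), the mitochondrial carriers (23 of 47, 48.9%, 35.3 to 62.8), the chloride, bicarbonate and proton group (21 of 45, 46.7%, 32.9 to 60.9) and the carriers of neurotransmitters (12 of 35, 34.3%, 20.8 to 50.8) it included that share. Slc7a6os, whose product is not a transporter, is among the 50 and had no peak. The lower limit of that group lies so close to 37.1% that including this share depends on Slc7a6os. The lower limits for the sugars (18 of 34, 52.9%, 36.7 to 68.5) and for vitamins and nucleosides (12 of 21, 57.1%, 36.5 to 75.5) were also close to it. Among the 45 are Slc4a1ap, Slc9a3r1 and Slc9a3r2, also not transporters, and Slc9a3r1 is among the 21. The subfamily Slc66 was placed with the amino acid carriers for Slc66a1, a lysosomal exporter of cationic amino acids. With Slc66a1 counted under its older symbol this group came to 26 of 50 (52%, 38.5 to 65.2), and with Slc66a2 as well to 27 of 50 (54%, 40.4 to 67), both intervals above 37.1%. Promoter peaks were found at 7 of the 28 genes grouped under nucleotide sugars and acetyl-CoA (25%, against 10.7% of all protein-coding genes). Among the 7 are Slc35b1, an ATP/ADP exchanger, and the orphan carrier Slc35f5. None of the 21 carriers of vitamins and nucleosides had a peak in the promoter window as annotated. The peaks of Slc46a3 (12.3), Slc19a2 (5.98) and Slc29a2 (4.58) lay just past its end, 11, 53 and 88 bp downstream of the TSS. The highest peak of this group, at Slc29a1 (19.7), was annotated 1307 bp upstream. With every RefSeq TSS counted, Slc29a1 did have a peak in the window. The groups were assembled from whole numbered subfamilies, so that the vitamin carrier Slc5a6, which has a promoter peak, stands with the sugar carriers of Slc5, and they were not tested against each other.

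**Figure D3:**
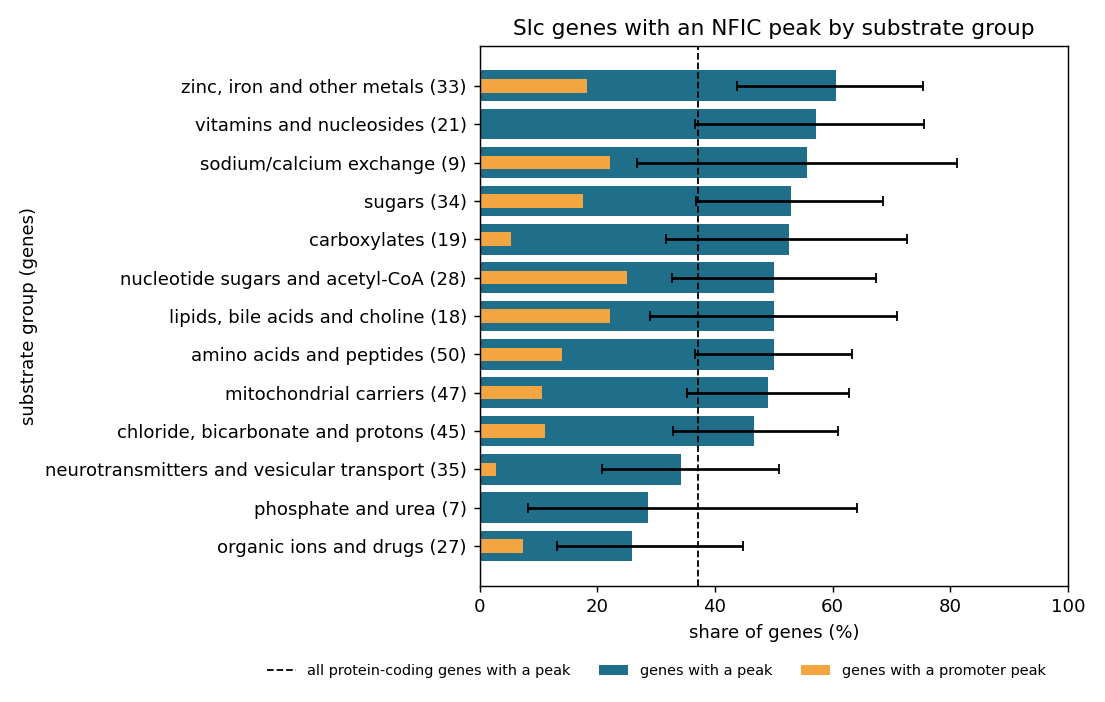
Share of annotated Slc genes (%, horizontal axis) that are nearest to at least 1 NFIC peak (blue bars, 95% Wilson intervals) or have a promoter peak (orange bars), by substrate group with the number of genes in brackets (groups of 7 or more genes). The dashed line marks the 37.1% of all protein-coding genes. The interval lies wholly above it for the metals and includes it for each of the other groups as drawn. For the amino acid group this depends on counting Slc7a6os, which is not a transporter and had no peak. That group as drawn does not count the peaks of 2 genes under older symbols (27 of 50 with them, 40.4 to 67%). The lower limits for the sugars (36.7%) and for vitamins and nucleosides (36.5%) also lie close to the line.

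Of the 51 annotated subfamilies, 42 had at least 1 gene near a peak under an Slc symbol, and 43 with Slc66 counted under its older symbols. The shares below stand against 37.1% of all protein-coding genes near a peak and 10.7% with a promoter peak, and the subfamilies were not tested against each other. The largest, Slc25 (mitochondrial carriers), had 39 peaks at 23 of 47 genes (48.9%, 35.3 to 62.8). Slc35, which includes the carriers of nucleotide sugars into the Golgi and ER, had 24 peaks at 13 of 27 genes (48.1%, 30.7 to 66.0), and 7 of the 27 had a promoter peak (25.9%). In the amino acid subfamilies, Slc7 had a peak at 10 of 16 genes (62.5%, 38.6 to 81.5, with Slc7a6os, not a transporter, among the 6 without one). Slc38 had one at 7 of 11 (63.6%, 35.4 to 84.8), 4 of them with a promoter peak (36.4% of the 11). The ZIP importers, Slc39, had a peak at 9 of 14 genes (64.3%, 38.8 to 83.7), with a median score of 8.56. The shares were 28% in Slc22 (organic ions, 7 of 25, 14.3 to 47.6), 28.6% in Slc6 (sodium-dependent neurotransmitter and amino acid transporters, 6 of 21, 13.8 to 50) and 28.6% in Slc9 (sodium/proton exchangers, 4 of 14, 11.7 to 54.6, with Slc9a3r1 among the 4). The intervals of Slc25, Slc35, Slc38, Slc22, Slc6 and Slc9 included 37.1%, and those of Slc7 and Slc39 lay above it. So did those of Slc16 (9 of 14 genes, 38.8 to 83.7), Slc29 (4 of 4, 51.0 to 100) and Slc46 (3 of 3, 43.9 to 100). On chromosome X, 1 of 13 Slc genes had a peak, Slc35a2 (7.69%, 1.37 to 33.3), near the 11.4% of all 905 protein-coding genes of that chromosome.

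Several amino acid transporters are induced by ATF4, the transcription factor of the integrated stress response, when amino acids are scarce or the ER is under stress. Of 9 such genes, 7 were near a peak (77.8%, 45.3 to 93.7, against 37.1% of all protein-coding genes) and 3 had a promoter peak (33.3%, against 10.7%). Together they had 24 peaks with a median score of 9.46, against 6.57 for the peaks of genes other than Slc genes. Of the 24, Slc6a9 and Slc7a1 held 6 each. These 9 genes, like the lists below, were chosen with earlier results of these data known, so the shares are descriptive only. Slc1a5, the glutamine and neutral amino acid exchanger ASCT2, had 3 peaks of similar score. They scored 12.7 in the promoter (170 bp upstream), 12.3 in intron 1 of 8 and 11.4 in intron 5. Slc6a9 had peaks on both sides of its start, with scores of 6.37, 9.56 and 11.6 upstream, 10.8 at 56 bp before the TSS, and 8.37 and 15.3 in introns. The highest of the 6 lay in intron 4, 9678 bp downstream.

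Most peaks of the other members of this group lay outside the promoter window, as did most peaks of Slc1a5 and Slc6a9. The same held for 268 of all 315 Slc peaks and for 13123 of the 15509 other peaks. The 6 peaks of Slc7a1 scored 6.97 and 11 upstream, 5.58 at the start site itself (49 bp downstream of the TSS), and 5.98, 5.78 and 9.96 in introns. Slc1a4, the neutral amino acid exchanger ASCT1, had a promoter peak of 8.37 at 595 bp upstream and intergenic peaks of 6.17 and 11. Slc7a5, the light chain of the large neutral amino acid transporter LAT1, had 2 intron peaks of 8.96 and 9.16. Slc38a2, the sodium-coupled transporter SNAT2, had 2 intergenic peaks, of 13.1 at 22922 bp downstream and 10.8 at 98066 bp upstream. The 2 peaks of Slc7a11, the cystine/glutamate exchanger, scored 9.36 and 5.98 and lay 163655 and 217654 bp upstream, so that their link to the gene rests on nearness alone. Slc3a2, the heavy chain with which Slc7a5 and Slc7a11 form their dimers, and Slc7a3 were not near a peak.

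Promoter peaks of Slc1a5 and of Slc38a3, the glutamine transporter SNAT3, are shown whole because both are high-scoring promoter peaks of amino acid carriers and hold an NFI palindrome with 1 mismatch (capitals). They are printed 5′ to 3′ on the plus strand of mm10. The Slc1a5 peak lies at chr7:16781090-16781262. The Slc38a3 peak lies at chr9:107669011-107669183, upstream of a gene on the minus strand. Neither overlaps an exon of its gene.
Slc1a5: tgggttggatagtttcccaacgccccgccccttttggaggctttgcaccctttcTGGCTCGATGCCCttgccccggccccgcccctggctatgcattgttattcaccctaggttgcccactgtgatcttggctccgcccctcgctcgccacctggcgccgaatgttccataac
Slc38a3: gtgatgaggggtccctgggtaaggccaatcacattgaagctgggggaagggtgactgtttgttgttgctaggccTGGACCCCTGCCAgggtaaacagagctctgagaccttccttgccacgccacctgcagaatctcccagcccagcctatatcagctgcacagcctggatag

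Further amino acid carriers of the exocrine pancreas had a peak at 4 of 7 genes (57.1%, 25 to 84.2, which includes the 37.1% of all protein-coding genes). Slc38a3 had the highest-scoring promoter peak among the amino acid carriers (16.9, 129 bp upstream), with another of 9.36 in an intron. Slc36a1, a proton-coupled carrier of the lysosome, had 1 peak of 16.9 in its 3′ UTR, 30125 bp downstream of the TSS. Slc7a2, a second carrier of cationic amino acids, had intron peaks of 10.8 and 6.57, and Slc7a8 had peaks of 9.36 (intergenic) and 7.77 (intron). Slc6a14, Slc38a5 and Slc43a1 were not near a peak.

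**Figure D4:**
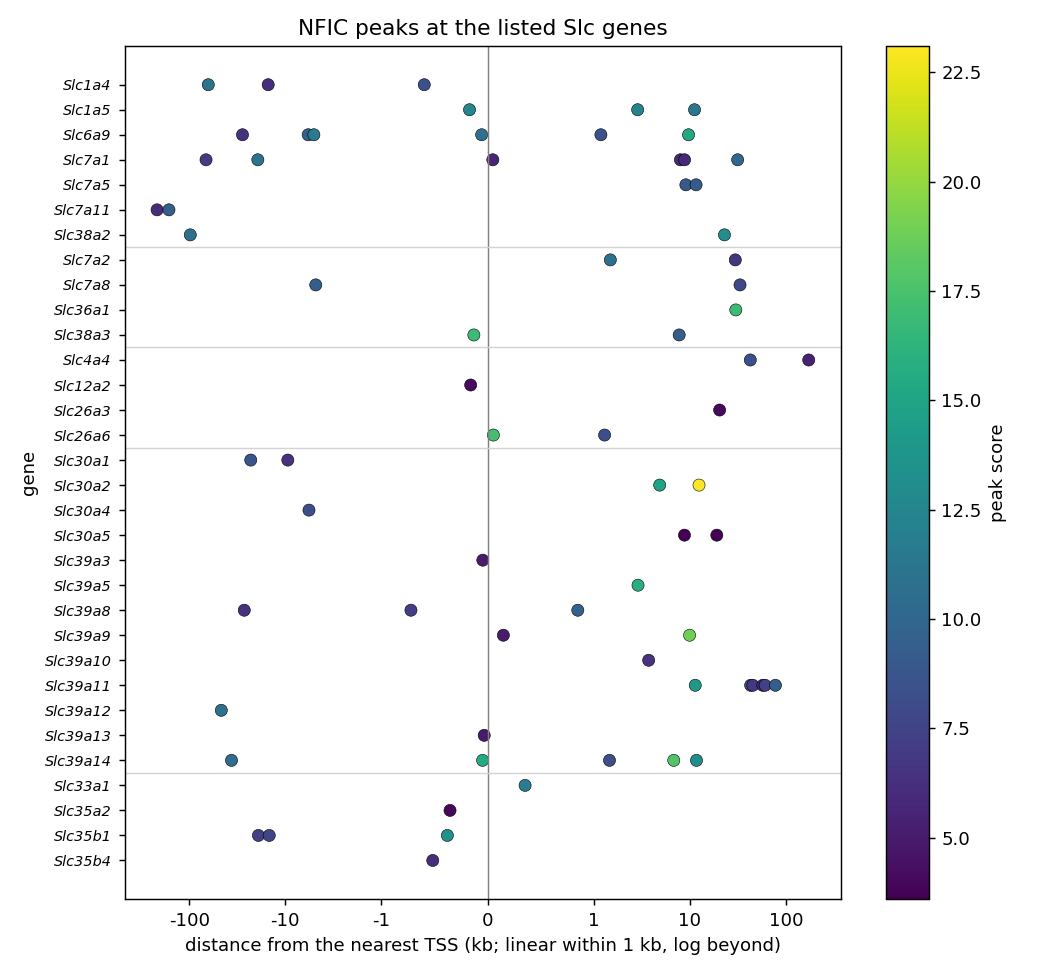
Distance of each NFIC peak from the TSS (kb, horizontal axis, linear within 1 kb and logarithmic beyond, negative upstream) for the listed Slc genes that have a peak, coloured by score. From top to bottom, grey lines separate the amino acid transporters of the ATF4 response, the other amino acid transporters of the exocrine pancreas, the genes of bicarbonate and fluid secretion, the zinc transporters and the ER and Golgi supply genes. The brightest point is the peak of Slc30a2 at 23.1, and Slc39a11 has all 6 peaks downstream.

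Zinc is loaded into the zymogen granules of acinar cells and is a cofactor of carboxypeptidases. ZnT exporters (Slc30) move it out of the cytosol and ZIP importers (Slc39) into it. Of 23 listed genes of both families, 13 were near a peak (56.5%, 36.8 to 74.4, which includes the 37.1% of all protein-coding genes) and 4 had a promoter peak (17.4%, against 10.7%). Their 28 peaks had a median score of 8.37. Among the exporters, Slc30a2 (ZnT2), which fills secretory vesicles, had the highest score, 23.1 for the peak in Extl1 and 14.9 for that in its own intron. Slc30a1, of the plasma membrane, had peaks of 8.76 and 6.37 upstream, Slc30a4 1 peak of 8.17, and Slc30a5 2 intron peaks of 3.59, among the lowest of the Slc peaks.

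Importers had peaks of a wide range of scores. The 5 peaks of Slc39a14 scored 10.4 upstream, in Piwil2, 15.5 in the promoter at 47 bp before the TSS, and 8.17, 17.7 and 13.1 in introns, so that 4 of the 5 were in the highest quartile of the list (9.16 or more). Slc39a9 had a peak of 4.98 near the start and one of 18.9 in the first intron. Slc39a5, the basolateral importer ZIP5, had 1 intron peak of 15.9. Slc39a8 had peaks of 6.37, 7.17 and 9.76, the second in the promoter (720 bp upstream) and the last in exon 2. The promoter peaks of Slc39a3 and Slc39a13 were weaker, at 4.98 each. The 6 intron peaks of Slc39a11 ranged from 5.58 to 14.1, Slc39a10 had 1 of 6.37, and Slc39a12 had an intergenic peak of 10.8. Slc30a3, not in the list, had 1 intergenic peak of 4.38. Slc30a8, the zinc transporter of insulin granules, was not near a peak, nor were Slc39a4 or Slc39a7.

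Secretion of bicarbonate and fluid by the duct and acinus uses Slc26 and Slc4 exchangers and sodium-coupled cotransporters. Of 7 such genes, 4 were near a peak (57.1%, 25 to 84.2, an interval that includes the 37.1% of all protein-coding genes). Slc26a6, an apical chloride/bicarbonate exchanger, had a peak of 17.3 in the promoter-TSS class, at 54 bp downstream of the TSS and thus just outside the promoter window used here, and another of 8.17 in the first intron. The electrogenic sodium/bicarbonate cotransporter Slc4a4 had intron peaks of 8.37 and 5.38. Slc26a3 (intron) and Slc12a2, the sodium-potassium-chloride cotransporter (promoter, 159 bp upstream), each had 1 peak of 4.18, in the lowest quartile. Slc4a2 and Slc9a3 were among those not near a peak.

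Glycosylation and protein folding in the ER and Golgi need imported nucleotide sugars, acetyl-CoA and ATP. Of 10 carriers of this supply, 4 were near a peak (40%, 16.8 to 68.7, near the 37.1% of all protein-coding genes) and 3 of them had a promoter peak (10.7% of all). Slc35b1, the ATP/ADP exchanger of the ER, had a promoter peak of 13.5 at 378 bp upstream and peaks of 7.37 and 7.57 in Fam117a. Slc33a1, the acetyl-CoA transporter, had a peak of 11.8 in exon 1, in the 5′ UTR. Scores were lower at the promoters of Slc35b4 (6.17) and of the UDP-galactose transporter Slc35a2 (3.98). Slc35a1, Slc35b2, Slc35b3, Slc35c1, Slc35d1 and Slc37a4 were not near a peak.

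Of 6 carriers known mainly from islet or neuroendocrine cells, none was near a peak (0 of 6, upper limit of the interval 39.0%). These were the glucose transporter Slc2a2, Slc30a8, the vesicular carriers Slc17a6, Slc18a1 and Slc18a2, and Slc6a17. With 6 genes, a share equal to the 37.1% of all protein-coding genes lies within the interval. The 6 were chosen with earlier results of these data known. In the subfamily of Slc17a6, 6 of 9 genes were near a peak, among them Slc17a7 (11.8) and Slc17a8 (5.38). In that of Slc18a1 and Slc18a2, 0 of 4 were.

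Among the mitochondrial carriers, the highest scores were those of Slc25a10 (17.7), of the promoter peak of Slc25a16 (16.3, 4 bp upstream of the TSS), of Slc25a45 (15.7, 5′ UTR) and of the aspartate/glutamate carrier Slc25a13 (14.9, 2634 bp upstream). The ADP/ATP carrier Slc25a4 and the phosphate carrier Slc25a3, both needed for oxidative phosphorylation, had 1 low-scoring peak each (5.38 and 3.98). Promoter peaks were also high-scoring at Slc35c2 and at the fatty acid transporter Slc27a1 (15.9 each), Slc37a1 (14.1), which exchanges glucose-6-phosphate for phosphate, and the sugar transporter Slc50a1 (12.7). The promoter peak of Slc5a6, the multivitamin transporter, scored 4.78 and lay in a promoter shared with the divergent gene Atraid.

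NFI palindromes were counted in 200-bp windows centred on the peaks, with up to 1 mismatch over the 8 fixed bases of TGGCNNNNNGCCA on both strands. They were found in 178 of 315 Slc peaks (56.5%, 51.0 to 61.9), against 51.8% of all peaks. As in the rest of the list, they were more frequent at high scores. The share was 70.3% in the highest score quartile, 50.7% in the second, 53.9% in the third and 47.9% in the lowest, against 68.0%, 51.1%, 44.0% and 43.0% of the other peaks. Exact palindromes were found in 41 Slc peaks (13%, against 13.5%).

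A wider gap appeared at promoters. Of the 47 Slc peaks in the promoter window, 27 held a palindrome (57.4%, 43.3 to 70.5), against 37.3% (35.4 to 39.3) of the 2386 other promoter peaks. Away from promoters the shares were 56.3% (50.4 to 62.2) and 54.3%. Slc promoter peaks were also less GC-rich, with a median of 56.5% against 64.0%. Below 60% GC, the palindrome was found in 19 of 32 Slc promoter peaks (59.4%, 42.3 to 74.5) and in 43.5% of 821 others. At 60% or more it was found in 8 of 15 (53.3%, 30.1 to 75.2) and in 34.1% of 1565. The shares were thus higher at Slc promoters in both ranges, but in each the interval included the share of the others, and 47 peaks are few. Promoter peaks that scored above 10 without a palindrome included those of Slc48a1, Slc25a16, Slc35b1, Slc50a1 and Slc6a9.

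**Figure D5:**
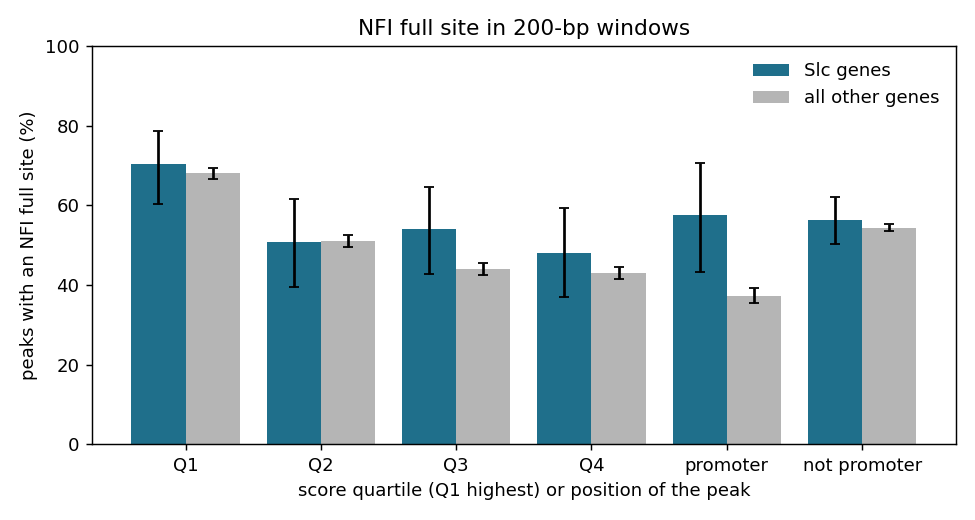
Share of peaks with an NFI palindrome (%, vertical axis, up to 1 mismatch, 200-bp windows) by score quartile (Q1 highest) and by position, for Slc genes (blue) and all other genes (grey), with 95% Wilson intervals. The intervals of both sets overlap in every class but the promoter, where Slc peaks (57.4%) lie above the others (37.3%).

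Other motifs were sought in the same windows on both strands, as letters only. TGTTTAC, the core of forkhead factors, was found in 6.67% (4.40 to 9.98) of Slc peaks and 3.93% of the others. The E-box CAGCTG was found in 25.4% (20.9 to 30.5) and 21.4%, and in promoter peaks in 23.4% (13.6 to 37.2) and 12.9%. GATAAG, the letters bound by GATA factors, were found in 9.84% and 7.70%, and CAAGGNCA, those of NR5A2, in 10.5% and 8.92%. GGGCGG, the SP box, was found in 44.7% (31.4 to 58.8) of Slc promoter peaks and 58.6% of the others. TGATGNAA, the letters of the ATF4 element, were found in 6 Slc peaks (1.90%, against 1.80%). They were in 0 of the 47 Slc promoter peaks and 1.05% of the others, a share too low for 47 peaks to show a difference. In the longer RefSeq promoter sequences they were in 2 of 35 Slc genes with a promoter peak (5.71%, against 2.62% of all genes with one), 1 of them Slc1a4. They were in 3.53% of Slc genes without a promoter peak, Slc7a11 included, and in 4.13% of all 16852 genes with such a sequence. With 2 genes, no difference can be shown. The windows of the Slc38a3 promoter peak held both CAGCTG and TGTTTAC, and those of the Slc1a5 promoter peak held the NR5A2 letters and the SP box.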

How the data were processed

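NFIC ChIP-Seq of mouse pancreas (3 libraries) and input DNA (1 library) was deposited as 1 merged, HOMER-annotated peak list on mm10. The submitters' processing notes name BWA, Picard and MACS2, whose versions and thresholds are not given in the sources used here. The peak score is the authors' own score, on a scale not named, and the focus ratio is a deposited fraction of tags. The list has 0 columns per sample. Peaks were taken where the gene symbol began with Slc and a digit, and genes were matched by ID to the RefSeq annotation of GRCm38, of a release that may differ from that of the authors. Distances were within 1 bp of this annotation for 296 of 314 peaks. Named genes were those of the 10 highest peaks, the 10 highest promoter peaks, the 10 genes with most peaks and the members of 6 lists. Members and lists were chosen with earlier results of these data known. Other genes were named after their values were seen, and some genes that the rule names are not reported here. Shares have Wilson intervals (scipy 1.17.1, pandas 2.3.3, Python 3.11). The palindrome search was tested on simulated data and found 100% of 1000 planted sites. Alternatives were a score filter, other promoter windows, other gene assignment, other members, merged peaks and other motif settings.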

Additional observations from a re-analysis of the deposited data

How the results depend on the processing

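With peaks of the upper 2 score quartiles only, 166 Slc peaks and 110 genes remained, and the share of Slc genes with a peak was 28.8% (21.8% of all protein-coding genes) and with a promoter peak 6.40% (5.56%). A peak inside the gene or up to 5000 bp upstream was found at 41.3% (35.7%). With a promoter window from -1000 to 1000 bp, 20% of Slc genes had a promoter peak (18.1%). With 1 peak per gene, the highest, 61.1% were in the upper quartiles (58.8% for other genes). With no mismatch, the palindrome share was 13% (13.5% of other peaks). In all of these the Slc share kept its side of the comparison, except for the exact palindrome. Nearest TSS from RefSeq gave 355 peaks and 191 genes, and without accessory and non-coding members, an alternative chosen after seeing the data, 310 and 177. Counting the genes under older symbols, also chosen after seeing the data, gave 180 of 375 Slc genes (48%) and 27 of 50 genes of the amino acid and peptide group (26 with Slc66a1 alone). No paired analysis was possible because the list holds no values per library. Depth and replicate error are unknown, so no difference given here was tested.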

Other observations

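Another 12 annotated Slc genes that the list does not name under an Slc symbol nevertheless held a peak inside the gene or within 5000 bp upstream. Slc66a2 held 3 and Slc66a1 held 2, and the other genes held 1 each. The peak of Slc18a3, the vesicular acetylcholine transporter, was assigned to Chat, which encodes choline acetyltransferase and shares its locus. Those of Slc8a2, Slc20a2 and Slc26a11 were assigned to Meis3, Smim19 and Sgsh. Repeats held 40 of the 315 Slc peaks (12.7%, 9.47 to 16.8, against 10.4% of other peaks), of which 15 were annotated to SINE and 15 to LTR elements. In the promoter sequences of RefSeq (GRCm38.p6), which run from shortly before to just after the start, the palindrome with up to 1 mismatch was found in 15 of 35 Slc genes with a promoter peak (42.9%, 28.0 to 59.1), against 34.7% of all 1834 genes with a promoter peak, which lies within that interval. It was found in 21.2% of 255 Slc genes without one and 18.1% of all 16852 genes with an entry.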
